A study of Mus musculus with 4 samples.

Results

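CTCF peaks were examined across the clustered protocadherin locus of mouse chromosome 18, in a window from chr18:36800000-38000000 (mm9). Membership went by position alone, and a peak belonged to the window by any overlap. The bounds were chosen with earlier results of these data known. The window held 23 of the 15109 peaks of the list and 5.69% of the 404 peaks on chromosome 18. The list came from hippocampus, the brain region needed to form new memories, of C57/Bl mice. The labels name 2 libraries immunoprecipitated with an anti-CTCF antibody and 2 libraries of input chromatin, sequenced with no immunoprecipitation step. They give no other treatment, genotype, age or sex. By the name of the list, peaks had been called once, on these libraries combined. The values therefore carry no error between replicates, and the depth behind them is unknown. Whole hippocampus holds neurons, glia and vascular cells, and these values cannot be divided among them.

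Clustered protocadherins are adhesion proteins of the neuronal surface, which give neurons different identities and help the branches of a cell to avoid each other. In the Pcdha and Pcdhg clusters, each variable first exon has a promoter of its own and is spliced to exons shared by the whole cluster, whereas Pcdhb genes consist of a single coding exon. CTCF, a zinc finger protein that holds chromatin loops together with cohesin, is known to bind at many of these promoters and at distant enhancers, and such loops take part in the choice of promoter.

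By name and order, RefSeq (GRCm38.p6) lists 58 clustered protocadherin genes in the locus, 1 of them a pseudogene (Pcdhgb8). Another 12 entries, further pseudogenes among them, lie between these genes. The 14 alpha genes run from Pcdha1 to Pcdha12, followed by Pcdhac1 and Pcdhac2, the so-called C-type members that many neurons share. The 22 beta genes follow, from Pcdhb1 to Pcdhb22. Slc25a2, a mitochondrial carrier, and Taf7, a subunit of the general transcription factor TFIID, come next. The 22 gamma genes close the locus and comprise 12 of subfamily A, 7 of subfamily B and the C-type genes Pcdhgc3, Pcdhgc4 and Pcdhgc5. Upstream neighbours include the histidyl-tRNA synthetase genes Hars and Hars2 and the zinc finger gene Zmat2. Downstream neighbours include Diaph1, an actin-nucleating formin, and Hdac3, a histone deacetylase. All 8 protocadherin genes listed as members of the locus were found in that table.

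The window was divided at chr18:37090000-37842000, the approximate position given for the 3 clusters, here called the core. The 290 kb before it are called the upstream stretch and the 158 kb after it the downstream stretch. The core is 752 kb long, whereas the clustered genes extend over 912 kb in GRCm38.p6. The upper bound of the core also falls within 1 kb of the number at which the last Pcdhg gene ends in GRCm38.p6, so it may have been taken from that build rather than from mm9. If so, the clusters reach further in mm9 than the core does, and some or all of the downstream stretch, with its 11 peaks, probably belongs to them. The core and the downstream stretch are therefore compared below as 2 intervals, not as the locus and its surroundings. No mm9 annotation was used here, and no peak is assigned to a gene, promoter or exon.

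CTCF peaks were spread very unevenly over the locus. The core held 7 peaks, the upstream stretch 5 and the downstream stretch 11, although the downstream stretch was the shortest. The plot of peak scores along the window shows 9 scattered peaks, a long peak-free interval, and then 14 peaks packed into the last 192 kb.

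**Figure D1:**
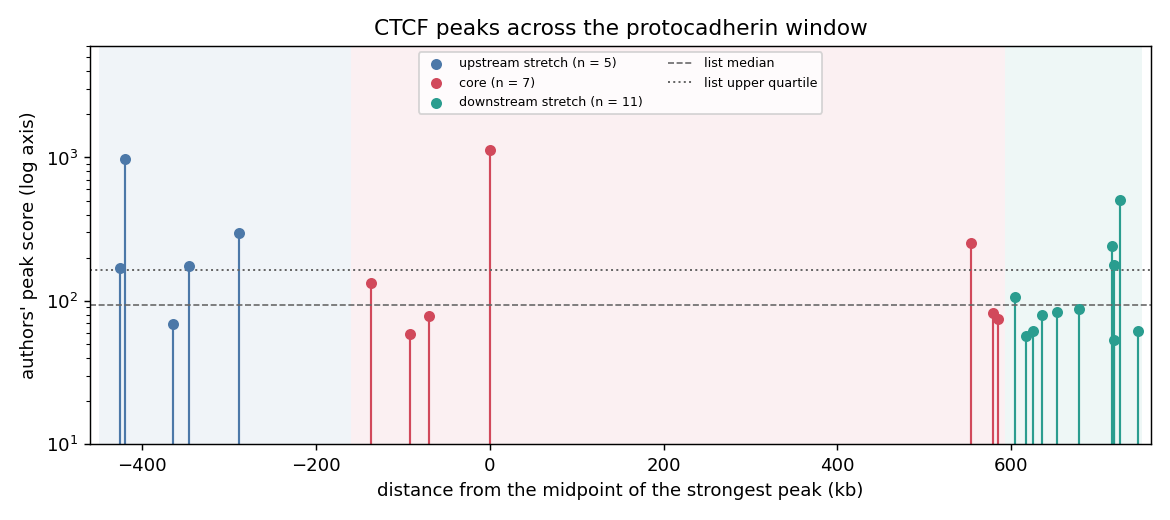
Authors' score of each of the 23 peaks (log axis) against distance in kb from the midpoint of the strongest peak, with shading and colour for the upstream stretch, the core and the downstream stretch. No peak lay over the 553 kb to the right of the strongest peak, and 14 peaks followed.

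The first peak of the core lay at chr18:37112336-37112860 and was 525 bp wide. Its score, a whole number per peak given by the authors whose scaling is not stated, was 134, against a list median of 93. The next peak upstream was 151 kb away, measured between midpoints as all distances below unless stated.

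The next pair of peaks was weaker. They lay at chr18:37157441-37157847 (score 59, width 407 bp) and at chr18:37179818-37180329 (score 79, width 512 bp). The first of these was 45.0 kb from the peak before it, and they were 22.4 kb apart. Both scored below the list median.

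The fourth, at chr18:37249339-37249968, was the strongest peak of the whole window. It scored 1123, which placed it at rank 203 of 15109 and above 98.7% of the list, and was 630 bp wide. It stood 69.6 kb from its nearest neighbour, so the highest score of the locus belonged to a solitary peak.

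No peak was called in the following 553 kb, from 37249969 to 37803415. This interval took up most of the core. In the gene order the beta cluster lies between the alpha and the gamma cluster, but which genes fall into the interval was not determined. Such an interval is not rare on this chromosome, where 40 of 403 intervals between adjacent peaks were longer and the longest measured 5.92 Mb. Among autosomes, 5.95% of 14955 intervals were at least as long. Near the locus, distances were shorter. The next longest between adjacent members was 151 kb, and the first member lay 260 kb from the peak before it. With unknown depth, an empty interval shows only that no peak was listed there, not that CTCF was absent.

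The fifth peak of the core, at chr18:37803416-37804104, ended that interval. It scored 252 and, at 689 bp, was the widest of the core. The sixth lay 25.1 kb further on at chr18:37828661-37829145 (score 82, width 485 bp). The seventh, at chr18:37833865-37834344, scored 75, was 480 bp wide and lay 5.20 kb from the sixth. The core thus held 2 groups of peaks, 4 in 138 kb and 3 in 30.9 kb, each with 1 peak clearly above the others by score.

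The downstream stretch opened 20.2 kb beyond the last core peak. Its first peak, at chr18:37854036-37854495, scored 107, and the next, at chr18:37866893-37867317, scored 57. These were followed by 4 peaks with scores of 62 to 88, so the first 6 peaks all scored below the upper quartile of the list, which is 163. They were narrow as well, at 365 to 460 bp. The distances between successive members of these 6 were 12.8, 7.70, 10.9, 16.3 and 25.9 kb.

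Stronger peaks came after a further 38.2 kb. They formed a group of 4, chosen for description after its values had been seen. The strongest peak of the downstream stretch was the last of them, at chr18:37974795-37975601. It scored 505 and, at 807 bp, was the widest of all 23. The peak at chr18:37965708-37966356 scored 242. A peak scoring 53, the lowest of the window, followed it at chr18:37967815-37968164. Only 93 bp separated it from the next, at chr18:37968258-37968705, which scored 179. That pair was the only one of the window with under 1 kb between its members, and joining it left 22 regions. The last member, at chr18:37995120-37995495, scored 62.

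The upstream stretch was led by a strong peak at chr18:36829477-36830219. It scored 980, above 98.1% of the list, and was 743 bp wide. A second peak, with a score of 169, lay 5.98 kb from it and was the first member of the window. The 2 peaks nearest to the core were at chr18:36903830-36904179 (score 174, width 350 bp) and chr18:36961073-36961701 (score 296, width 629 bp). The remaining peak, at chr18:36885040-36885617, scored 69.

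The borders of the window differed on its 2 sides. The nearest peak outside it upstream lay 236 kb away and scored 97. Downstream, a peak scoring 43 lay 11.9 kb beyond the border, 16.8 kb from the last member, so the window border does not mark a break in the downstream group. The peak after that one was 124 kb beyond the border and scored 50.

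Peak density in the core was 9.31 per Mb, with an exact Poisson 95% interval of 3.74 to 19.2. The rest of chromosome 18 had 381 peaks, or 4.56 per Mb (4.11 to 5.04). The ratio was 2.04 and the intervals overlapped, which neither shows a difference in density nor excludes one. In the upstream stretch the density was 17.2 per Mb (5.60 to 40.2). This was 3.78 times the rest of chromosome 18, on 5 peaks, with intervals close together but not overlapping. The downstream stretch had 69.6 per Mb (34.8 to 125), which was 15.3 times the rest of chromosome 18 with intervals far apart. Peaks lie in groups rather than independently, so these intervals, which cover counting error only, are too narrow. No test of a difference was made, since the list has no replicates.

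The core and the downstream stretch together held 18 peaks, or 19.8 per Mb (11.7 to 31.3). This was 4.34 times the rest of chromosome 18, against 2.04 for the core alone. The density given for the locus thus moved with the placement of its downstream end. Peaks covered 0.496% of the core, 3.21% of the downstream stretch and 0.244% of the rest of the chromosome.

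Windows of equal length, laid end to end from position 1 to the last peak, showed where these counts stood. Of the 118 windows of 752 kb on chromosome 18, 15 (12.7%) held at least the 7 peaks of the core, and 39 held none. Among the 15 are the windows starting at 36848050 and 37600051, with 7 and 28 peaks, which hold the core's own peaks. The median window held 1 peak. Over the 19 autosomes, 22.0% of 3264 windows held at least 7. The windows directly before and after those holding the core's peaks start at 36096049 and 38352052, and held 10 and 13 peaks. The core thus held more peaks than most windows of the chromosome and of the autosomes, without being among the fullest. With the bounds used here, it held fewer than either of these neighbouring windows, the first of which also holds members of the upstream stretch. The upper bound of the core is in doubt, and with the downstream stretch added the count was 18 in 910 kb. No standing of the locus against its surroundings is therefore read from these counts. A difference from the surroundings was not tested.

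The downstream stretch stood near the top, in a ranking that had not been planned before its count was known. Of 564 windows of 158 kb on chromosome 18, 1 held 11 or more peaks, and 383 held none. That window, from 38236001 to 38394000, held 12 peaks and lies beyond the end of the locus window. With the windows shifted by 50% of their length, 3 of 563 held 11, the highest count reached. One of these, from 37841001 to 37999000, holds the same 11 peaks as the downstream stretch, which leaves 2 others. Over the autosomes such counts were also uncommon, with 99 of 15570 windows (0.636%). The whole locus window of 1.2 Mb, with 23 peaks, was equalled or exceeded by 3 of 74 windows on chromosome 18 and by 9.49% of 2044 on the autosomes. Windows overlapping the locus were not left out. A window with 35 peaks, the highest count on chromosome 18, holds members of the locus itself.

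**Figure D2:**
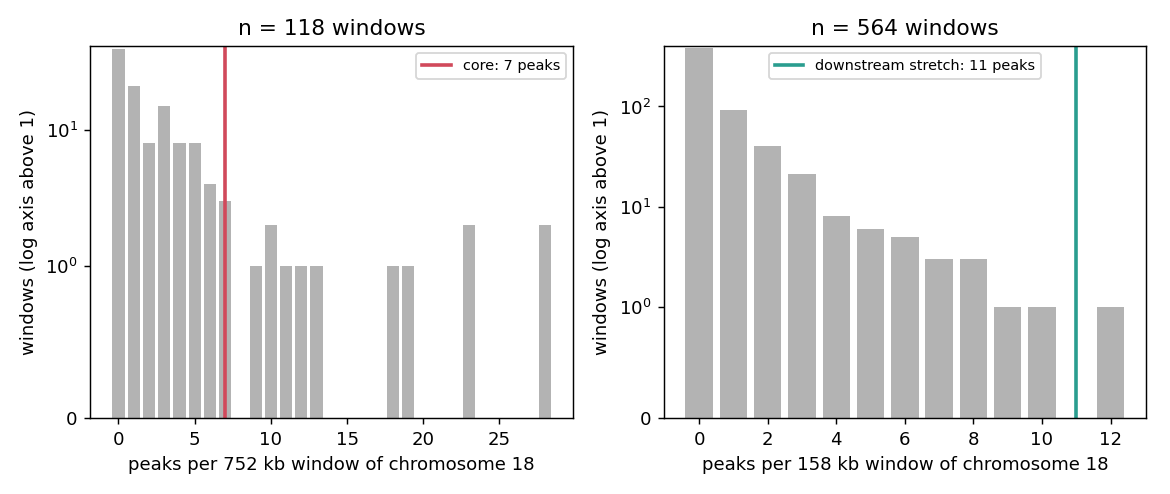
Number of windows (axis logarithmic above 1) by peaks per window on chromosome 18, for windows as long as the core on the left and as long as the downstream stretch on the right, with coloured lines at the counts of the locus. The core, with 7 peaks, lies within the upper part of the distribution, and the downstream stretch, with 11, is exceeded by 1 window.

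Distances between neighbouring peaks were shortest in the downstream stretch. The median distance between adjacent midpoints was 11.9 kb in the downstream stretch (10 distances, 0.492 to 38.2 kb) and 35.1 kb in the core (6 distances, 5.20 to 554 kb). In the upstream stretch it was 37.1 kb (4 distances, 5.98 to 57.4 kb). Over all of chromosome 18 it was 45.0 kb, with an interquartile range of 12.9 to 171 kb. All 10 downstream distances were under that chromosome median, as were 16 of the 22 distances between adjacent members of the window. With the core bounds moved 20 kb inward, its median distance was 57.3 kb, above that of the chromosome.

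Of the 23 members, 10 had another peak within 10 kb (43.5%, exact 95% interval 23.2 to 65.5), against 42.9% of the whole list and 33.6% (28.9 to 38.6) in the rest of chromosome 18. The interval for the members includes both, but it treats the peaks as independent, which they are not. The count was 2 of 7 in the core, 6 of 11 in the downstream stretch and 2 of 5 in the upstream stretch. In the dense downstream stretch, 1 pair of peaks was under 1 kb apart, and the other distances ran from 1.96 to 38.2 kb.

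**Figure D3:**
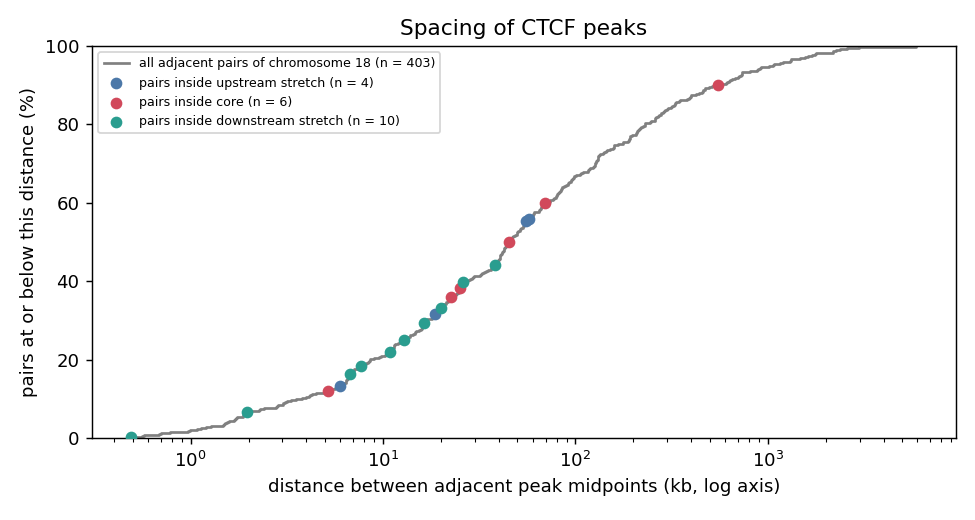
Cumulative share of adjacent peak pairs on chromosome 18 by distance between midpoints (log axis, grey line, n = 403), with the pairs inside each part of the locus as coloured points on it. The 10 downstream pairs all lie at or below 38.2 kb, whereas the core includes the 554 kb pair.

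Scores in the locus overlapped those of the rest of the chromosome. The median score was 82 in the core (7 peaks, 59 to 1123), 84 in the downstream stretch (11 peaks, 53 to 505) and 174 in the upstream stretch (5 peaks, 69 to 980). The rest of chromosome 18 had a median of 95 and an interquartile range of 69 to 159. Each of the 3 ranges overlapped the others and that of the rest. The median of the core rested on its bounds. With both moved 20 kb inward it was 134 over 5 peaks, above that of the rest, and with both moved outward it was 94.5 over 8 peaks. At or above the list median of 93 were 11 of the 23 members, against 50.3% of the list.

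Scores of 163 or more were found for 9 of the 23 members (39.1%, exact 95% interval 19.7 to 61.5), against 25.4% of the list. The upstream stretch contributed 4 of its 5 peaks, the core 2 of 7 and the downstream stretch 3 of 11. The interval for the 23 members includes the share of the list, as do those for the core and the downstream stretch. That for the upstream stretch, 28.4 to 99.5%, lies above it. These intervals treat peaks as independent, which they are not, so they describe the shares and test no difference. Within the downstream stretch, 7 of the 11 peaks scored below 93 (63.6%), against 49.3% in the rest of chromosome 18. Its 3 peaks of 163 or more gave a density of 18.99 per Mb (exact Poisson 95% interval 3.92 to 55.5), 16.9 times the 1.12 per Mb of such peaks in the rest of the chromosome. The downstream ratio for peaks of this strength was thus close to the 15.3 for all peaks. A high density of such peaks was not particular to the downstream stretch. The upstream stretch had 13.8 per Mb (3.76 to 35.3), 12.3 times the rest of the chromosome. Some of the peaks counted lay close to the cut of 163, with scores of 169 and 174 upstream and 179 downstream. The core had 2.66 per Mb (0.322 to 9.61), 2.37 times the rest.

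Widths of the members lay within the range seen elsewhere on the chromosome. The median was 512 bp in the core (407 to 689 bp), 425 bp in the downstream stretch (350 to 807 bp) and 629 bp in the upstream stretch (350 to 743 bp). The rest of chromosome 18 had a median of 466 bp, with quartiles of 401 and 582 bp. No member was wider than 807 bp, whereas the widest peak in the rest of the chromosome measured 1763 bp. Wider members scored higher, with a Spearman's rho of 0.66 across the 23 peaks against 0.59 across the list. The points share the same libraries, and both width and score come from the same reads. The 9 members scoring 163 or more had a median width of 649 bp and the other 14 one of 425 bp.

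**Figure D4:**
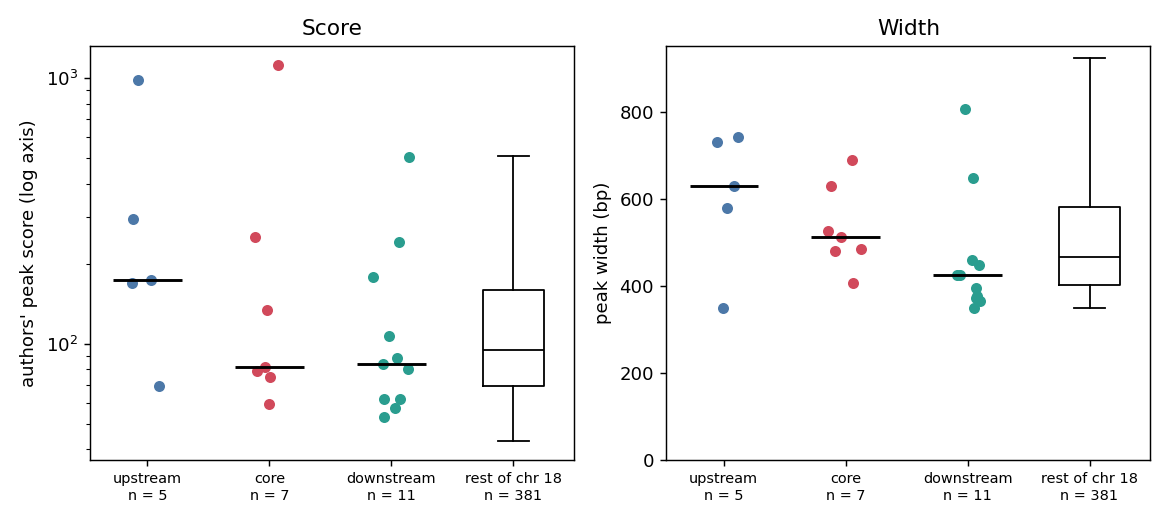
Authors' peak score (log axis, left) and peak width in bp (right) for each peak of the 3 parts of the locus, with black lines at the medians, beside the rest of chromosome 18 (box: quartiles and median, whiskers: 5th to 95th percentile). The core and downstream medians of 82 and 84 lie under the 95 of the rest (the core median is 134 with bounds moved 20 kb inward), and all member widths lie between 350 and 807 bp.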

How the data were processed

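One peak list was used, called by the authors on 2 ChIP and 2 input libraries combined, going by the list name in the file header. The series text counts a single input sample, whereas the labels name 2. MACS2 version 2.0.10.20131216, cutadapt and mouse build mm9 are named in the submitters' processing notes. For the aligner, duplicate handling and calling threshold, nothing is stated (not given in the sources used here). The deposited score is a whole number per peak of unstated scaling, used only to describe and rank peaks within the list.

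Starts were converted to positions counted from 1. Peaks were assigned by any overlap, and windows were counted by midpoints. The span of chromosome 18 ran from its first to its last peak, and windows began at position 1, so unsequenced ends count as empty. Poisson and binomial (Clopper-Pearson) intervals are exact at 95%. Python 3.11.15 with numpy 2.4.6, pandas 2.3.3 and scipy 1.17.1 was used, and the functions were tested on made-up lists.

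The members, bounds and measures were chosen with earlier results of these data known. By rule, every core peak was named, with the 2 nearest and the strongest peak of each stretch beside it. Other peaks named were chosen after their values were seen. Gene names and order came from RefSeq (GRCm38.p6), with no coordinates transferred. Alternatives covered score, joining, bounds, assignment and distance. Promoter motifs and sequences were not analysed here.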

Additional observations from a re-analysis of the deposited data

How the results depend on the processing

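The core count of 7 peaks was 3 with scores of 93 or more and 2 with scores of 163 or more, as the filters themselves imply. It was 18 with the upper bound at the end of the window, an alternative added after seeing the data. It was 8 or 5 with bounds moved 20 kb outward or inward, and 7 after joining peaks under 1 kb apart or assigning them by midpoint. Median spacing, width and score stayed within their 95% order-statistic intervals under all alternatives run, but with 7 peaks those intervals are the whole ranges. The spacing still moved from 35.1 kb to 554 kb among scores of 163 or more, to 346 kb among scores of 93 or more and to 20.1 kb with the later upper bound. With bounds 20 kb inward it was 57.3 kb and the median score 134, and with bounds 20 kb outward 25.1 kb and 94.5. The median score was 252 and 688 under the 2 score filters. Windows holding the core's own peaks were not left out of the following shares. The share of 752 kb windows on chromosome 18 with at least as many peaks as the core was 12.7%, and 13.6% with shifted windows. For scores of 163 or more, where the core held 2, it was 18.6% on chromosome 18 and 24.3% on autosomes. For the downstream stretch in windows of its own length, a comparison that had not been planned, the shares were 0.177% and 0.636%. No paired analysis was possible because peaks were called once on the pooled libraries, which also means that none could be left out. The looser motif letters for promoters were not run. How many reads lie under a weak peak or in an empty interval is not known.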
